A study of Homo sapiens with 2 samples.

Results

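The genes described here are 60 protein-coding genes that lie together on the long arm of chromosome 18, from B4GALT6 to ATP8B1, in a segment that runs from 29202209 to 55470547 of GRCh37 (26.3 Mb). They are 60 of the 37122 rows of an RNA-seq count table. The segment was picked out because its genes had few reads in 1 of the 2 libraries, so the differences below describe that choice and are not a test of it. The libraries came from Ramos, a human Burkitt's lymphoma (BL) cell line of B-cell origin, and from Ramos640, a derivative of Ramos selected with rising rituximab concentrations for resistance to complement-dependent cytotoxicity (CDC). Rituximab is an antibody against the B-cell surface protein CD20, and CDC is killing by serum complement that the antibody recruits. Both lines grew in RPMI medium with serum and antibiotics, and Ramos640 cells alone received rituximab at 640 mg/mL by the sample labels (μg/mL in the study's methods) with 20% normal human serum every 21 days. RNA of 3 passages per line was pooled into 1 library, so there is no replicate, no difference has a replicate check, and selection, time in culture and chance differences between the 2 cultures cannot be told apart.

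The segment holds genes of unrelated function. SMAD2 and SMAD4 carry the signal of TGF-β and activin receptors to the nucleus, where SMAD4 is the partner shared with the BMP branch, and SMAD7 is the feedback inhibitor of the pathway. TCF4 encodes an E protein, a class of basic helix-loop-helix factors that direct B-cell development and that ID proteins hold inactive. MBD1 and MBD2 bind methylated CpG sites, while CXXC1 binds unmethylated ones. Around them lie zinc finger genes, enzymes of the mitochondrion and haem synthesis, and subunits of complexes whose other parts are encoded elsewhere in the genome.

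Ramos contributed 38030090 reads and Ramos640 contributed 30871826, and counts were set to a common scale by size factors of 1.14 and 0.876, the median ratio of each library to the geometric mean of both. Log2 fold changes compare Ramos640 with Ramos and use normalized counts plus 1, so values of low genes are pulled toward 0. Intervals are exact 95% Clopper-Pearson intervals and cover counting error only. All 7 B-cell markers examined had at least 1904 reads in each library, but they did not stay level. Their log2 fold changes ran from -1.96 for MS4A1, the CD20 gene (9654 and 1904 reads), to 0.64 for CD79B (69495 and 82890). The T-cell genes CD2, CD3D and CD8A had no reads in either library. Of the other T-cell markers, CD3E had 1 and 31 reads, CD4 11 and 19, and CD3G 5 and 1. Summed normalized counts in Ramos and Ramos640 were 14.9 and 58.2 for 6 T-cell markers, 4.38 and 14.8 for 4 monocyte markers and 33.3 and 17.1 for 4 epithelial markers. The 3 collagen genes used as fibroblast markers had reads in both libraries, with a summed normalized count of 1124 in Ramos and 450 in Ramos640, and their part in the results was not tested. In such bulk RNA, fewer cells that express a gene and less RNA per cell cannot be told apart.

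Nearly every listed gene that could be measured was lower in Ramos640. Of the 60 genes, 51 had at least 10 reads in the 2 libraries together. The fold limit used here, 1.5-fold, is that of the study, without the false discovery rate limit that the study set beside it. By this limit 49 of the 51 were lower, against 17.3% of all 18778 genes with at least 10 reads. The same 49 were lower by more than 2-fold, against 8.75% of all genes, and had an interval wholly below 0, against 31.6%, and 36 of the 51 stood under -1.5, against 4.48%. A single gene, NOL4, was higher by more than 1.5-fold, against 14.6% of all genes, and had an interval above 0, against 29.6%. Because the segment was chosen on this contrast, the counts describe the choice. The 51 genes had a median of -1.67, with quartiles of -2.14 and -1.39, beside a median of -0.015 over all genes. All 60 genes summed to 191541 reads in Ramos against 51053 in Ramos640, and the log2 ratio after scaling was -1.53 with an interval from -1.54 to -1.51. Their share of the library was 0.504% in Ramos and 0.165% in Ramos640.

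**Figure D1:**
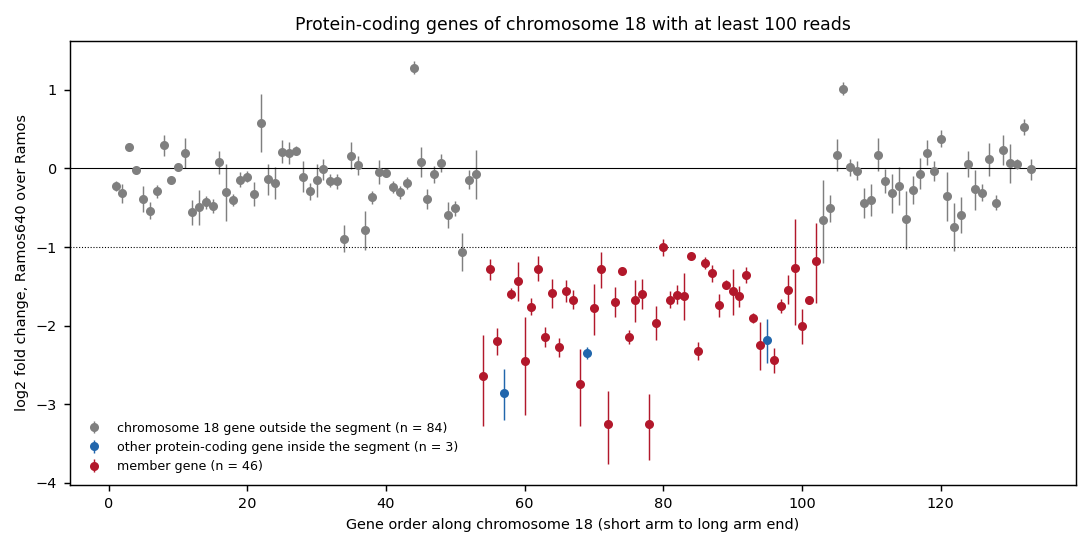
Each point is a protein-coding gene of chromosome 18 with at least 100 reads, in order along the chromosome (horizontal axis, rank) against its log2 fold change in Ramos640 over Ramos (vertical axis), with its 95% counting interval as a bar and dotted and solid lines at -1 and 0. The 46 genes of the list (red) all lie below -1, down to -3.26, with 3 further coding genes of the segment (blue) among them and 84 genes outside it (grey) scattered around a median of -0.15.

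Most of the rest of the chromosome did not share decreases of this size. The 96 protein-coding genes of chromosome 18 outside the segment with at least 10 reads had a median log2 fold change of -0.14. The median over all protein-coding genes with as many reads was -0.058. Of the 96, 8 were lower by more than 1.5-fold and 7 higher by as much, against 17.3% and 14.6% of all genes. Only 1 was lower by more than 2-fold, against 8.75% of all genes. It was PSMA8, on the side of the short arm and named after its values were seen (539 and 198 reads, -1.06, interval from -1.31 to -0.83). Intervals lay wholly below 0 in 42 and wholly above 0 in 15, against 31.6% and 29.6% of all genes. The median was -0.15 for the 62 genes on the side of the short arm and -0.028 for the 34 genes on the far side. At the first edge, B4GALT6 had 241 reads in Ramos and 29 in Ramos640, TRAPPC8 had 1915 and 605, and RNF138 had 1947 and 326. SLC25A52, an unlisted gene between B4GALT6 and TRAPPC8 that is named after its values were seen, was higher, with 21 and 32 reads (0.95, interval from 0.15 to 1.86). The nearest measured gene before them was KCTD1, with 199 and 145 reads (-0.075, interval from -0.39 to 0.24), and no coding gene between it and B4GALT6 had at least 10. KCTD1 ends at 24237365 and B4GALT6 begins at 29202209, so this edge is not placed more closely than that. At the other edge, FECH had 1012 and 193 reads, NARS 18188 and 4362, and ATP8B1 134 and 45. Beyond them, NEDD4L had 95 and 46 reads (-0.66, interval from -1.21 to -0.14), a value between those of the segment and 0. The edges were drawn from these values and are given without a test.

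**Figure D2:**
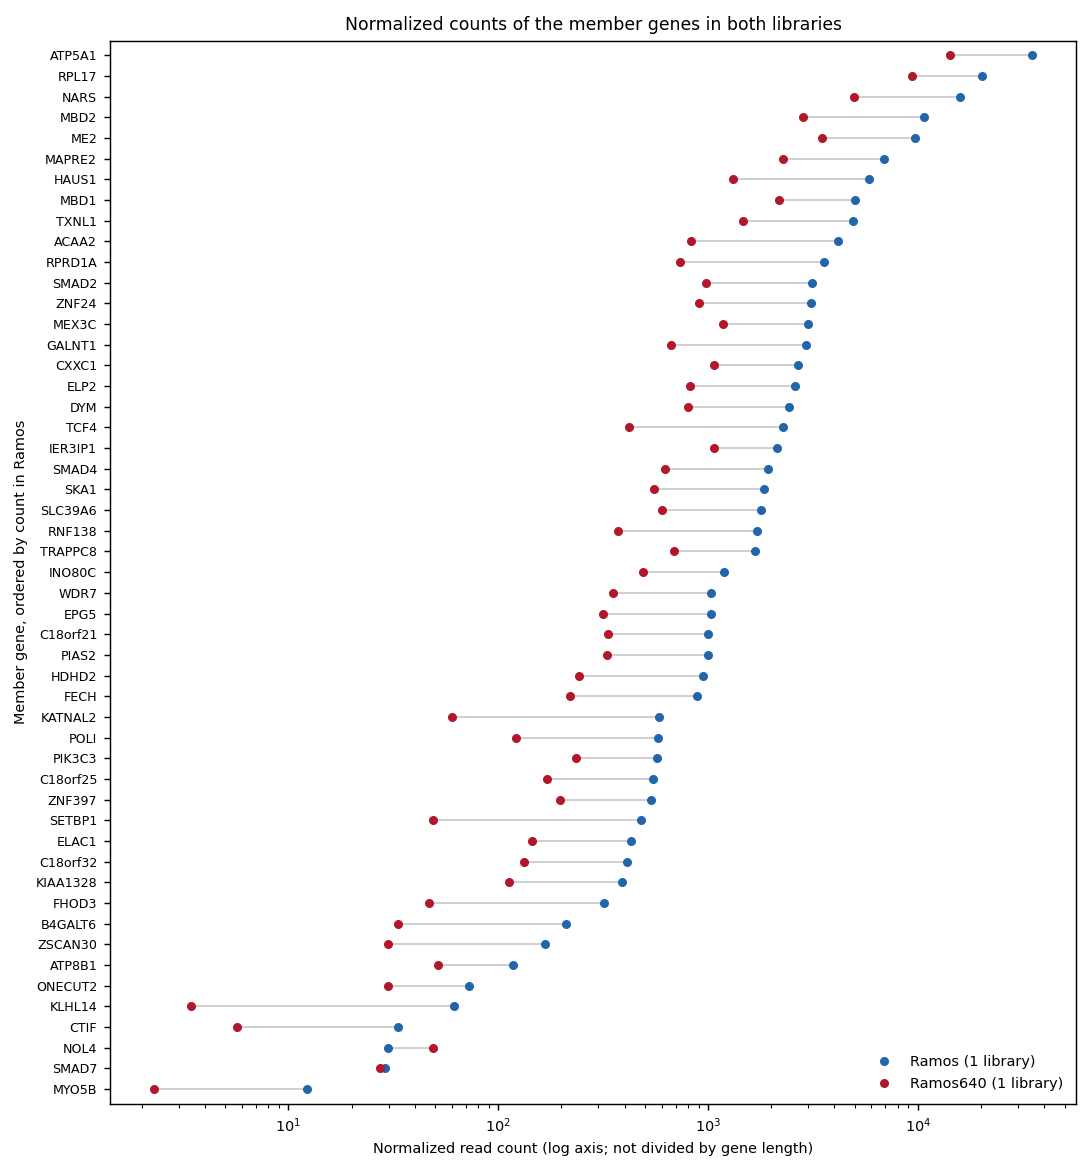
Normalized read counts (horizontal axis, log scale, not divided by gene length) of the 51 genes with at least 10 reads, with Ramos in blue, Ramos640 in red and a grey line joining the 2 libraries of each gene. The red point lies to the left of the blue one in every gene except NOL4, and both nearly coincide for SMAD7.

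Of the SMAD genes, both signal carriers lost reads and the inhibitor could not be resolved. SMAD4, on chromosome 18 from 48554898 to 48611415, counted 2207 reads in Ramos against 548 in Ramos640 (-1.63 on the log2 scale, interval from -1.77 to -1.49). SMAD2, at 45335328 to 45457517, counted 3562 and 859 reads (-1.67, interval from -1.78 to -1.56). The values of both genes lay within each other's intervals. SMAD7, at 46446223 to 46477335 between them, had only 33 and 24 reads (-0.076, interval from -0.90 to 0.72). A change of SMAD7 was not detectable at this depth, and its interval lies wholly above the values of SMAD2 and SMAD4.

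The other genes of this pathway lie outside the segment. Of 21 genes for TGF-β, activin and BMP ligands, receptors, SMADs and regulators, 20 had at least 10 reads and 14 at least 100. Of the 20, 7 were lower by more than 1.5-fold and 1 higher by as much, against 17.3% and 14.6% of all genes. The same shares stand beside the counts of partner genes in the paragraphs below. The median of the 20 was -0.29. The lowest were BMPR1A, a BMP receptor (92 and 6 reads, -3.38, interval from -5.04 to -2.38), and SMAD6, an inhibitory SMAD of the BMP branch (51 and 3 reads, -3.37, interval from -6.03 to -2.08). The highest were ACVR1 (29 and 42 reads, 0.89) and ACVR1B (583 and 542 reads, 0.28), both type I receptors. SMAD3, which binds SMAD4 as SMAD2 does and is named after its values were seen, had 2161 and 722 reads (-1.20, interval from -1.32 to -1.08). Textbook target genes of SMADs went both ways. Of 9, 5 were below the limit and 2 above it, against 17.3% and 14.6% of all genes, with a median of -0.59. Only 7 of the 9 had at least 100 reads. TGFBI had 122 and 22 reads (-2.05, interval from -2.82 to -1.43), while PMEPA1 had 53 and 207 (2.32, interval from 1.91 to 2.81).

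TCF4 was among the lowest genes with many reads. The gene spans positions 52889416 to 53332018 and counted 2599 reads in Ramos against 367 in Ramos640 (-2.44, interval from -2.60 to -2.28). Neither of the other E-protein genes passed a fold limit. TCF3, which encodes E2A, had 17580 and 13559 reads (0.0064, interval from -0.026 to 0.039), and TCF12, named after its values were seen, had 1243 and 834 (-0.19). Of the 4 ID genes, ID1 was just below the limit (1375 and 700 reads, -0.59) and ID2 was the highest (772 and 681 reads, 0.20). ONECUT2, a homeobox factor known from liver and neurons, had 83 and 26 reads (-1.27, interval from -1.99 to -0.64).

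Genes for CpG-binding and chromatin proteins were lower to unequal degrees. MBD2, which recruits the NuRD repressor complex to methylated DNA, is at 51677976 to 51751039 and counted 12133 reads in Ramos against 2494 in Ramos640 (-1.90, interval from -1.96 to -1.84). MBD1, at 47793252 to 47808144, counted 5709 and 1904 reads (-1.20, interval from -1.28 to -1.13). The intervals of these related genes do not overlap. CXXC1, a subunit of the SET1 histone methyltransferase complexes whose gene lies next to MBD1, had 3069 and 934 reads (-1.33), and INO80C, a subunit of the INO80 remodelling complex, had 1357 and 430 (-1.28). SETBP1, whose protein binds the oncoprotein SET, was far lower, with 545 and 43 reads (-3.26, interval from -3.77 to -2.83), the lowest value among the genes with at least 100 reads. ASXL3, a Polycomb-associated gene, had no reads in either library, which allows up to 3 in each.

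Partners of these proteins kept their levels within the fold limits almost throughout. None of the 12 other NuRD genes, the 8 other SET1 complex genes or the 13 other INO80 genes was past a limit in either direction, and their medians were 0.14, 0.24 and 0.23. In NuRD the values ran from -0.49 (RBBP7) to 0.33 (MBD3), in the SET1 complexes from -0.30 (SETD1B) to 0.58 (SETD1A), and in INO80 from -0.49 (YY1) to 0.49 (INO80B). Among the 6 other methyl-CpG binding genes, MBD4, a glycosylase that removes mismatched bases at CpG sites, was below the limit (3866 and 1742 reads, -0.77). ASXL2, ASXL1 and BAP1 stood at -0.22, 0.078 and 0.097.

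Of the 5 zinc finger genes, all except ZBTB7C lie close together, and the 3 with enough reads were lower by more than 2-fold. ZNF24, a SCAN-domain repressor, had 3510 reads in Ramos and 797 in Ramos640 (-1.76, interval from -1.87 to -1.65). ZNF397, with 608 and 173 reads (-1.43), and ZSCAN30, with 190 and 26 (-2.45), run toward each other and overlap by 16076 bases, so that without strand their reads could have been assigned to either. The next gene, ZNF271, is annotated as a transcribed pseudogene and was not on the list. It had 691 and 133 reads (-1.99). ZNF396 had 3 and 0 reads and ZBTB7C none in either library, so neither could be compared.

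Every gene for RNA handling and translation on the list was lower by more than 2-fold. NARS, the cytosolic asparaginyl-tRNA synthetase, had 18188 reads in Ramos and 4362 in Ramos640 (-1.68, interval from -1.73 to -1.63), while none of the 19 other synthetases of the cytosol was below the limit and 2 were above it, FARSA (0.71) and VARS (0.59). Their median was 0.051, and DARS was the lowest (5769 and 2992 reads, -0.57). ELP2, a subunit of the Elongator complex that modifies tRNA, had 2972 and 717 reads (-1.67), against -0.14 to 0.36 in the other 5 subunits. RPRD1A, which binds the tail of RNA polymerase II, had 4072 and 644 reads (-2.28, interval from -2.40 to -2.16), while its relatives RPRD1B and RPRD2 stood at 0.23 and -0.12. MEX3C, an RNA-binding ubiquitin ligase, had 3424 and 1027 reads (-1.36). ELAC1, a tRNA-processing nuclease, had 490 and 127 (-1.56), and CTIF, a factor of cap-dependent translation, 38 and 5 (-2.35, interval from -4.25 to -1.20). RPL17, a protein of the large ribosomal subunit, had 23109 and 8220 reads and one of the smaller differences (-1.11, interval from -1.15 to -1.07). The table lists 48 RPL17 pseudogenes, 24 of them with at least 10 reads, so the count of this gene is uncertain.

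Metabolic genes covered a wide range of decreases. ATP5A1, the α subunit of the mitochondrial ATP synthase, had 40096 reads in Ramos and 12497 in Ramos640 (-1.30, interval from -1.33 to -1.27). Of the 14 other ATP synthase genes, 1 was below the 1.5-fold limit, ATP5E (-0.64), none was above it, and the median was -0.19. ATP5B, the β subunit that pairs with ATP5A1 in the catalytic head and is named after its values were seen, had 58960 and 48674 reads (0.10). ACAA2, the mitochondrial thiolase of fatty acid oxidation, was lower still, with 4754 and 728 reads (-2.32, interval from -2.44 to -2.21), against -0.45 to 0.42 in 5 related genes. FECH, which inserts the iron that completes haem, had 1012 and 193 reads (interval from -2.24 to -1.79). The 7 earlier enzymes of haem synthesis lay between -0.27 (CPOX) and 0.54 (UROD). ME2, the mitochondrial NAD-dependent malic enzyme, had 11068 and 3053 reads (-1.48). Its relatives ME1 and ME3 had no reads in either library, so ME2 was the only malic enzyme gene measured. HDHD2, a hydrolase of the HAD family, had 1079 and 212 reads (-1.96). MOCOS, the molybdenum cofactor sulfurase, had 1 and 0.

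**Figure D3:**
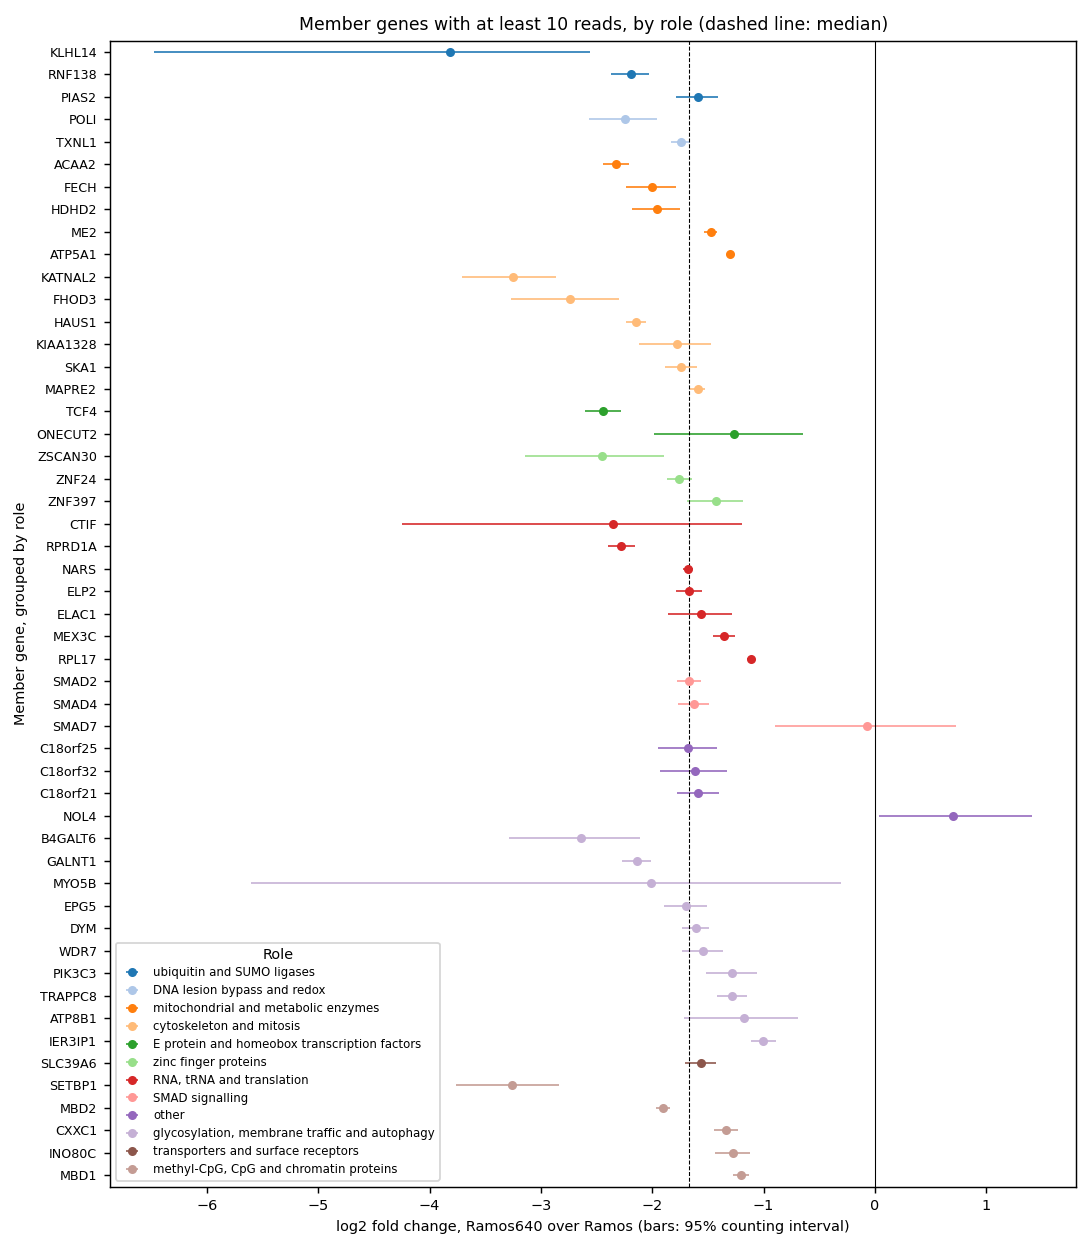
Log2 fold change in Ramos640 over Ramos (horizontal axis) of the 51 genes with at least 10 reads, grouped and coloured by role, with 95% counting intervals as bars, a solid line at 0 and a dashed line at the median of -1.67. Of these genes only SMAD7 has an interval that includes 0 and only NOL4 one that lies above it, and the role medians run from -2.19 for ubiquitin and SUMO ligases to -1.33 for chromatin proteins.

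The 10 genes of glycosylation, membrane traffic and autophagy formed the largest role group, with a median of -1.57. B4GALT6, which makes lactosylceramide, was the lowest of those with at least 100 reads (-2.64, interval from -3.28 to -2.11). GALNT1, which starts O-glycosylation, had 3336 and 581 reads (-2.14). Among 13 other GALNT and B4GALT genes measured, 1 was below the limit, GALNT10 (-0.65), and 2 were above it, GALNT6 (453 and 1129 reads, 1.70) and B4GALT7 (0.75). PIK3C3, the lipid kinase VPS34 that forms autophagosome and endosome lipids, had 652 and 205 reads (-1.28, interval from -1.52 to -1.06), while its 5 partner subunits lay between -0.047 (BECN1) and 0.30 (ATG14). TRAPPC8, of the TRAPP tethering complexes, stood at -1.28, against a median of 0.11 in 13 other subunits. EPG5, a tether for autophagosomes (1174 and 278 reads, -1.69), DYM, a Golgi protein (2774 and 699, -1.61), and WDR7, which acts with the vesicle proton pump (1177 and 310, -1.54), were close to the median of the segment. ATP8B1, a lipid flippase, stood at -1.18. IER3IP1, a small protein of the endoplasmic reticulum, had the smallest decrease of all genes with at least 100 reads, with 2428 and 930 reads (interval from -1.11 to -0.89). MYO5B had 14 and 2 reads, a ratio with a log2 interval from -5.61 to -0.30.

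Among ubiquitin and SUMO ligases, KLHL14, an adaptor of cullin ligases known in B cells, had 70 reads in Ramos and 3 in Ramos640 (-3.82, interval from -6.48 to -2.56). RNF138, a ubiquitin ligase, had 1947 and 326 reads (-2.19). PIAS2, a SUMO ligase that also binds STAT proteins, had 1138 and 289 reads (-1.59), against -0.29 (PIAS1) to 0.35 (PIAS3) in its 3 relatives. RNF125 had 0 and 2 reads and could not be compared.

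Several genes of the mitotic spindle were low. HAUS1, a subunit of augmin, which branches spindle microtubules, had 6657 reads in Ramos and 1155 in Ramos640 (-2.15, interval from -2.24 to -2.06), while the 7 other augmin genes were within the limits, from -0.52 (HAUS8) to 0.56 (HAUS7). SKA1, which couples kinetochores to microtubules, had 2103 and 482 reads (-1.74), against -0.52 for SKA2 and 0.083 for SKA3. MAPRE2, an end-binding protein of microtubules, had 7824 and 1990 reads (-1.59), while MAPRE1 was level (7406 and 5834 reads, 0.037, interval from -0.013 to 0.087). KATNAL2, a relative of the microtubule-severing katanin, had one of the lowest values, with 667 and 53 reads (-3.25, interval from -3.70 to -2.87). FHOD3, an actin-assembling formin, had 364 and 41 (-2.74), and KIAA1328, 445 and 99 (-1.78). DTNA (5 and 1 reads) and PSTPIP2 (1 in each) were too low to compare.

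Of the remaining genes, SLC39A6, a zinc importer, had 2037 reads in Ramos and 529 in Ramos640 (-1.56). Of 9 other SLC39 genes measured, 1 was lower by more than 2-fold, SLC39A10 (412 and 152 reads, -1.05), and the highest was SLC39A13 (0.33). POLI, a Y-family polymerase that copies past damaged bases, had 659 and 106 reads (-2.25, interval from -2.56 to -1.96), while the other Y-family genes POLH, REV1 and POLK lay between -0.46 and -0.43. TXNL1, a thioredoxin-like protein of the proteasome, had 5604 and 1283 reads (-1.75). C18orf21 (1140 and 291 reads, -1.59), C18orf25 (623 and 149 reads, -1.68) and C18orf32 (467 and 116 reads, -1.62) were within 0.1 of the median. NOL4, a nucleolar protein gene of the nervous system, was the exception and was higher rather than lower. It had only 34 reads in Ramos and 43 in Ramos640 (0.70, interval from 0.037 to 1.41). Total counts as the scale moved the median of all genes by -0.080, so whether the NOL4 interval excludes 0 depends on the scale. DCC, the netrin receptor, and SLC14A1, a urea transporter, had no reads in either library.

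The partner genes as a whole did not share the decrease. Of 192 genes on 25 lists, 184 had at least 10 reads and 174 at least 100, whereas 13677 of all 18778 genes with at least 10 reads had at least 100. Among the 184, 17 were lower by more than 1.5-fold and 8 higher by as much, against 17.3% and 14.6% of all genes. Their median was 0.027, or -0.053 with total counts as the scale, beside -0.015 over all genes. Each list is a description, since lists and members were put together with results of these libraries known.

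**Figure D4:**
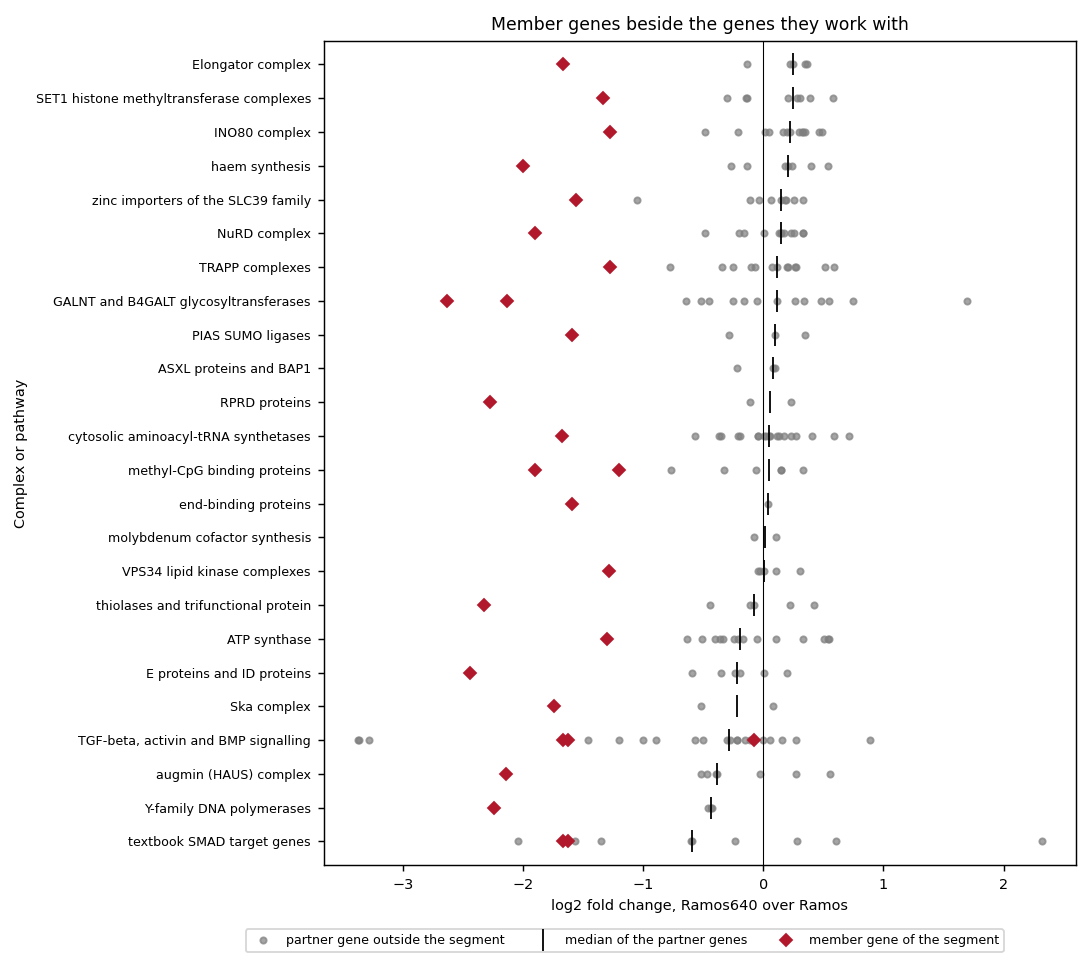
Log2 fold change in Ramos640 over Ramos (horizontal axis) of genes of the segment (red diamonds) and of the genes outside it that work in the same complex or pathway (grey points, black tick for their median), for the 24 lists with measured partners (vertical axis). In every list except the 2 of SMAD signalling and its targets, the red diamonds lie to the left of all grey points, and 2 lists have no measured gene of the segment.

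The decreases were not of 1 size. Among the 46 genes with at least 100 reads, the share of the normalized count that remained in Ramos640 had a median of 31.4%, with quartiles of 23.2% and 36.8%, and it ran from 10.3% (SETBP1) to 49.9% (IER3IP1). The counting intervals of 15 genes lay wholly below the median of -1.67, those of 11 wholly above it, and those of 20 included it. The spread is therefore wider than counting error, although variation between cultures was not measured. Of the 51 genes with at least 10 reads, 16 stood under -2 on the log2 scale, against 2.52% of all genes with as many reads. Across the 46 genes with at least 100 reads, which share their libraries, the log2 fold change went weakly with transcript GC content (Spearman's rho = 0.17), transcript length (-0.026), the normalized count in Ramos (0.14) and the position along the chromosome (0.17). Whether any of these properties has a part in the differences was not tested. Transcripts of the 46 genes had a median GC content of 42.4%, lower than the 47.8% of 10187 protein-coding genes with as many reads. With the GC trend over all such genes removed, 28 of the 51 listed genes left their counting intervals.

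Genes that start back to back by the gene bounds of GENCODE v44lift37 showed the same spread. The gaps and overlaps given here come from those bounds, and starts in RefSeq can differ. ATP5A1 and HAUS1 are transcribed away from each other with 43 bases between them, and stood at -1.30 and -2.15. SLC39A6 and ELP2, 58 bases apart in the same arrangement, stood at -1.56 and -1.67, with overlapping intervals. TXNL1 and WDR7 overlap by 258 bases at their starts and stood at -1.75 and -1.54, also with overlapping intervals. The RefSeq windows around their starts are apart, at 56638543 to 56638842 and 56651109 to 56651408 of GRCh38.p14, so RefSeq does not place them back to back. KIAA1328 and the unlisted TPGS2 overlap there by 111 bases and stood at -1.78 and -2.34, with intervals that do not overlap. PIAS2 and KATNAL2 overlap by 2669 bases at their starts and stood at -1.59 and -3.25, the widest gap of these 5 pairs. ATP5A1 has 9 pseudogene rows with at least 10 reads and HAUS1 has 2, so the counts of this pair are uncertain, and reads in the overlap of PIAS2 and KATNAL2 could have been assigned to either. The start regions of HAUS1 and KATNAL2 are shown because these are the pairs of listed genes whose intervals do not overlap. They are RefSeq windows of 300 bases on GRCh38.p14, from 250 bases before the start to 50 after it, on the + strand, and capitals mark matches to a GC box (GGGCGG), an ETS core (CGGAAG), an E-box (CACGTG) or a TATA box (TATAAA) on either strand, some of which overlap.
HAUS1, chr18:46104135-46104434: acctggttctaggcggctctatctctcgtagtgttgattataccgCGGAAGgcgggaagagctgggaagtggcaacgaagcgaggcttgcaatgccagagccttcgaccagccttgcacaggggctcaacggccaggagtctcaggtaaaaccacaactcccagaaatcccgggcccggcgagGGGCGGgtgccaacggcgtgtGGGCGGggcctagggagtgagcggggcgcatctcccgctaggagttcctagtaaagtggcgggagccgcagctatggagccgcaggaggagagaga
KATNAL2, chr18:46917344-46917643: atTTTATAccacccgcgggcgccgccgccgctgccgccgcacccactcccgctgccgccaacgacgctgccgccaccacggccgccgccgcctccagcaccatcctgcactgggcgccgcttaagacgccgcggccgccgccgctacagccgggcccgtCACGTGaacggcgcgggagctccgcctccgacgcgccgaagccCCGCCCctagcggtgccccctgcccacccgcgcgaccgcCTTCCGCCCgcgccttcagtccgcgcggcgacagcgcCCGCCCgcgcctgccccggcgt

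The HAUS1 window shares 257 bases with that of ATP5A1, and the KATNAL2 window shares 186 with that of PIAS2, each on the opposite strand. HAUS1 has 22 CpG dinucleotides and KATNAL2 has 55, the most among the listed genes with a window. Windows were found for 49 of the 60 genes. Their median was 27 CpG dinucleotides, against 22 over 15843 protein-coding genes. These 15843 were not limited to genes with reads in the 2 libraries, whereas 41 of the 49 had at least 10, so the 2 sets are unlike. A GC box was present in 36 of the 49 (73.5%, against 58.5% of all windows) and an ETS core in 19 (38.8%, against 25.6%). A CCAAT box (CCAAT) was present in 18 (36.7%, against 36.4%), an E-box in 4 (8.16%, against 8.88%) and a TATA box in 2 (4.08%, against 9.63%). The window of TCF4 has 3 CpG dinucleotides and that of RPL17 has 12. A match describes the letters in the window only.

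Other transcripts of the segment, not on the list, differed by kind. Among the unlisted coding genes, 7 reached 10 reads, of which 6 were lower and SLC25A52 was higher, while 5 of the 7 were lower by more than 2-fold. TPGS2, of the tubulin polyglutamylase complex, had 9997 reads in Ramos and 1511 in Ramos640 (-2.34), FAM59A, now called GAREM1, 867 and 91 (-2.86), and C18orf54 737 and 124 (-2.18). ST8SIA5 had 44 and 6 reads (-2.33) and MRO 49 and 16 (-1.19), whereas TCEB3B, with 7 and 5, stood at -0.089 with an interval from -2.10 to 1.77. TPGS2 overlaps FHOD3 and KIAA1328, and FAM59A overlaps RNF138. The small nucleolar RNAs encoded inside members were also low. SNORD58A, SNORD58B and SNORD58C, within RPL17, stood at -0.67, -1.91 and -1.38, and SNORA37, within MBD2, at -1.96, while 172 snoRNA rows with at least 10 reads in the whole table had a median of 0.36. Processed pseudogenes went both ways. Of 14 with at least 10 reads, 7 were lower and 7 higher, with a median of 0.052, and the 2 with the most reads, named after their values were seen, were HNRNPA1P7 (16974 and 14788 reads, 0.18) and RPL7AP66 (3790 and 4396 reads, 0.59). Of the 14, 5 were lower and 3 higher by more than 1.5-fold, against 17.3% and 14.6% of all genes. More than 2-fold lower were 3, against 8.75%. TCEB3C (17 and 2 reads, -2.28) and TCEB3CL (20 and 2 reads, -2.50) were matched to the same bounds inside the segment, so 1 place is counted in 2 rows. Such rows are copies of other genes, and how reads that fit several places were counted is not given in the sources used here.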

How the data were processed

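RNA of 3 passages of Ramos and of Ramos640 cells was pooled into 1 library per line. The authors removed adaptor sequences, aligned the Ion reads to GRCh37 with MapSplice (v2.1.6) and deposited read counts per gene without normalization. The counting program, its annotation, its use of strand and its treatment of reads that fit several genes are not given in the sources used here.

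The 60 genes were matched by name to the 37122 rows. Size factors, log2 fold changes and Clopper-Pearson intervals were computed in Python 3.11.15 (scipy 1.17.1), with a pseudocount of 1 and a minimum of 10 reads. The code was run on simulated counts that held counting error only. That run checks the computation and cannot show how well the intervals cover variation between cultures. TMM factors came from edgeR 4.0.16. With 1 library per line no dispersion can be estimated, so edgeR's quasi-likelihood test and DESeq2 were not run and no p-values are given. A gene was called by the study's fold limits (1.5 and 0.667) alone, without its false discovery rate limit. Coordinates, GC content and lengths came from GENCODE v44lift37, where 58 genes matched by symbol and ATP5A1 and NARS by an older symbol. Promoter windows came from RefSeq (GRCh38.p14). The rules on named genes were to account for every member and to name the 2 highest and 2 lowest partners of a list, with exceptions marked. The values of 1 partner gene are not reported here. Members, roles and partner lists were chosen with earlier results of these data known. Alternatives were TMM and total-count scaling, pseudocounts of 0.1 and 10, minimums of 1 and 100 reads, removal of the GC trend (running median over 501 genes), and leaving out overlapping or edge genes.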

Additional observations from a re-analysis of the deposited data

How the results depend on the processing

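The median log2 fold change of the listed genes was -1.67 and stayed between -1.75 and -1.61 under 8 alternatives. Removing the GC trend gave -1.43. The count of genes lower by more than 2-fold was 49 of 51, and 47 with a pseudocount of 10 or 46 of 51 without the GC trend. The log2 ratio of the summed reads (-1.53) was -1.61 with total counts, -1.55 without the 12 genes that overlap other rows and -1.51 without the first 3 and last 3 genes. Total counts moved the median of all genes by -0.080. No listed gene past a fold limit changed sign under any of these alternatives. Single values were less stable. Without the GC trend, 28 of the 51 listed genes and 120 of 180 partner genes left their counting intervals. With total counts, 7 of the 51 listed genes and 68 of 184 partner genes did. No paired analysis was possible because each cell line has 1 library, and no library could be left out. Depth limits NOL4, SMAD7, MYO5B, CTIF, KLHL14 and the 9 genes with fewer than 10 reads. RPL17, ATP5A1, HAUS1 and RNF138 may share reads with their pseudogenes.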
